A study of Rattus norvegicus with 6 samples.

Results

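Nuclear receptors are transcription factors that bind DNA through a pair of zinc fingers and, in many members, change activity when a small lipid-soluble ligand enters their ligand-binding domain. Thyroid hormone, retinoic acid, vitamin D, steroids, bile acids, oxysterols and fatty acids are such ligands, and other members have no known natural ligand. Many members bind DNA as a pair with a retinoid X receptor, and coactivator or corepressor proteins carry the signal from the bound receptor to chromatin. In the kidney, Hnf4a maintains the identity of proximal tubule cells, the mineralocorticoid receptor Nr3c2 controls sodium reabsorption in the distal nephron, and Vdr takes part in calcium and phosphate handling.

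The nuclear receptor family was examined as 43 genes listed by symbol, and its members on the array were the non-control probes whose transcript accession belongs to a listed gene. There were 81 such probes for 40 of the 43 genes, out of 15639 genes with a symbol on the array. No probe was matched to Rora, Hnf4g or Nr6a1. The list is not the complete family.

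Renal cortex was taken from 6 rats, all male and of the Sprague-Dawley strain, bought at 5 weeks of age. The 3 control animals received corn oil, the vehicle, for 4 weeks. The other 3 received tricresyl phosphate, an aryl phosphate ester found in plastics and lubricants, at 200 mg/kg/day for 4 weeks. The isomers in the tricresyl phosphate and the hour at which animals were killed are not given in the sources used here. RNA of each animal was hybridised to 1 single-colour Agilent array, so replicates are animals, and replicate numbers below are those of the labels. Corn oil replicate 1 was on a slide of its own and was scanned on another date than the other animals, which shared a slide. Each level is the log2 of the processed signal after subtraction of that array's own 75th percentile on the same scale, so a level of 0 equals that percentile. Levels of different probes are not set against each other, because probes differ in brightness for reasons other than transcript abundance. Differences are tricresyl phosphate minus corn oil on the log2 scale, and errors given as SE come from a limma fit over all genes.

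Between 41503 and 43823 of 61537 probes per array were well above background, and the medians of processed signal lay between 102.6 and 133.2. The tissue label was checked against markers. All 8 proximal tubule markers, 4 of 4 for the thick ascending limb, 6 of 6 for the collecting duct and 4 of 4 for podocytes were measured. For the distal tubule 2 of 4 were measured, since Pvalb exceeded background in no animal and Trpm6 had no probe. Of the adrenal cortex markers Cyp11b1 and Mc2r exceeded background in no animal, and Cyp11b2 in 1, whereas Cyp21a1, the other of the 4, was measured in all 6 at levels from −2.07 to −1.91. Hepatocyte markers were measured in 6 of 6 cases, and the sum of their signals, each in units of the array's 75th percentile, ran from 1.55 to 9.28 with corn oil and from 2.61 to 7.17 with tricresyl phosphate. Corn oil replicate 2 had the highest sum, followed by tricresyl phosphate replicate 3. The 3 blood markers summed to 529.96 to 592.02 with corn oil and 425.1 to 531.1 with tricresyl phosphate.

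Most of the receptor genes were detected in the renal cortex. Of the 81 probes, 62 were well above background on all 6 arrays, 5 on some and 14 on none. At least 1 probe was well above background on at least 3 arrays for 34 of the 40 genes, and these were tested. Over all genes with a symbol the share was 79.5%. All 34 had a probe well above background in every animal, so detection did not separate the groups for any of them.

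The 6 genes left out were Esr2, Esrrb, Pgr, Nr4a3, Nr5a1 and Nr5a2. Pgr, the progesterone receptor, had 2 probes, Nr5a1, the steroidogenic factor of adrenal and gonad, had 2, and Nr5a2, a liver and pancreas receptor, had 3. None of these 7 probes was well above background on any array. Esr2, oestrogen receptor beta, had 4 probes, 1 of which was well above background in corn oil replicates 2 and 3 and in no other animal. Esrrb, an orphan receptor of stem cells, had 1 of 2 probes above background in corn oil replicate 3 alone. Nr4a3, an immediate early receptor, was so in corn oil replicate 2 alone. No fold is given for these 3 genes, because the corn oil mean of the probe lay below the detection bound averaged over the tricresyl phosphate arrays.

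Probes of 1 gene could be detected unequally. Nr1i3, the constitutive androstane receptor that drives genes of foreign compound metabolism in liver, had 4 probes. The probe for NM_001270838 was well above background in all 6 animals, and the 3 probes for NM_022941 were so in none. Nr3c2 had 2 probes above background in all 6 animals and a dimmer one in 3 animals only.

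No receptor gene passed the comparison of the groups. Of the 34 tested, 0 had an adjusted limma p under 0.05, where 0.0% of the 31637 genes tested were called. Over all genes, 2 passed with normexp, 2 with a trended robust variance model, and 1 each without tricresyl phosphate replicate 2 or 3. At an unadjusted limma p under 0.05 the count was 0 of 34, where 5.49% of all genes were called. The smallest adjusted limma p of a member was 0.811. The groups of 3 animals did not overlap in 1 of 34 members, where 11.8% of all genes did so, and this member lay below its controls, as did 7.94% of all genes. Without corn oil replicate 1, 2 or 3 that count was 2, 5 and 8, where 20.6%, 21.6% and 27.6% of all genes did not overlap. Without tricresyl phosphate replicate 1, 2 or 3 it was 6, 2 and 5, where the shares were 25.7%, 18.8% and 21%. At an unadjusted limma p under 0.05 the count was 1 without corn oil replicate 2, Nr4a2, and 1 without corn oil replicate 3, Nr0b1. In these fits 5.09% and 6.58% of all genes were called. In a whole-tissue sample fewer cells of a type and less RNA per cell cannot be told apart, which holds for every difference below.

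The differences were small on balance. Their median was 0.014 over the 34 members and −0.038 over all genes tested, with 20 members above 0 and 14 below. Of all genes tested, 40.8% lay above 0. This split depended on scaling: 15 members were above 0 after median centring, and 24 after quantile or cyclic loess normalization. The shares of all genes above 0 were then 36.0%, 45.8% and 47.5%. Without tricresyl phosphate replicate 2 the median was −0.0034, with 16 members and 40.7% of all genes above 0. Differences were under 0.25 in size for 32 of 34 members, Nr1d1 and Nr0b1 being the others. With 3 animals a group the 95% interval from the fit lay inside −0.5 to 0.5 for 20 members, and for 55.8% of all genes. The intervals of the other 14 members reached past −0.5 or 0.5. Animals of 1 group differed by a median SD of 0.175 over the members and 0.168 over all genes.

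**Figure D1:**
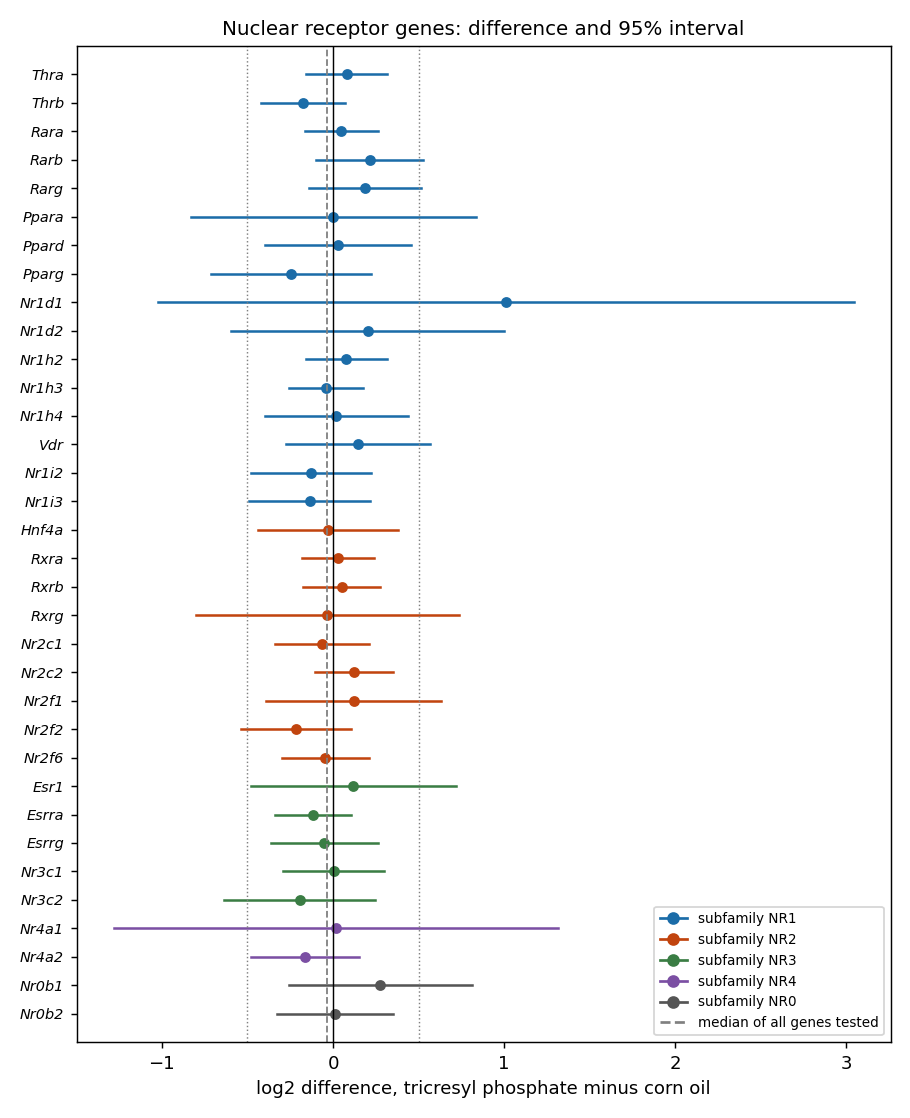
Each point is the log2 difference of 1 nuclear receptor gene, tricresyl phosphate minus corn oil, and each line its 95% interval from the limma fit with 3 animals a group. All 34 intervals include 0, dotted lines mark −0.5 and 0.5, and the widest interval is that of Nr1d1.

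Thyroid hormone receptors activate or repress genes according to whether the hormone is bound. Thra, the alpha receptor, was at 0.68, 0.67 and 0.67 in the corn oil animals and at 0.65, 0.90 and 0.70 in the tricresyl phosphate animals, a difference of 0.08 ± 0.097 (SE). Only tricresyl phosphate replicate 2 stood outside a narrow band. Thrb, the beta receptor, had the smallest p of all members. Its levels were 2.62, 2.65 and 2.50 with corn oil and 2.52, 2.44 and 2.28 with tricresyl phosphate. The groups overlapped, corn oil replicate 3 lying below tricresyl phosphate replicate 1. The groups differed by −0.18 ± 0.10 (SE), at an adjusted limma p of 0.811, and its other probes were at −0.10 and 0.32.

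Retinoic acid receptors respond to the acid made from vitamin A. All 6 of their probes had differences above 0. Rara, the alpha receptor, was at 0.70, 0.80 and 0.62 with corn oil and at 0.75, 0.73 and 0.79 with tricresyl phosphate, and these ranges overlapped. Rarb, itself a textbook target of retinoic acid, was at −0.81, −0.88 and −1.19 with corn oil and at −0.64, −0.83 and −0.75 with tricresyl phosphate. Its difference was 0.22 ± 0.13 (SE), and tricresyl phosphate replicate 2 lay just under corn oil replicate 1. Rarg, the gamma receptor, was at 1.45, 1.37 and 1.61 with corn oil and 1.47, 1.62 and 1.88 with tricresyl phosphate. The difference was 0.18 ± 0.13 (SE), and tricresyl phosphate replicate 3 was the animal with the highest level. The second probes of Rara, Rarb and Rarg differed by 0.32, 0.49 and 0.26. Adjusted limma p-values of the 3 genes lay between 0.811 and 0.915.

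Peroxisome proliferator-activated receptors bind fatty acids and their derivatives. Ppara controls fatty acid oxidation and is active in the proximal tubule. It was at 0.23, 0.71 and −0.37 with corn oil and at −0.21, 0.70 and 0.08 with tricresyl phosphate. The spread within each group exceeded 0.9, and the group means, 0.189 ± 0.54 (SD, n = 3) and 0.190 ± 0.47 (SD, n = 3), were almost equal. The second probe gave 0.29, 0.68 and −0.44 with corn oil and −0.28, 0.63 and 0.21 with tricresyl phosphate. Both probes therefore put the same animals high, corn oil replicate 2 and tricresyl phosphate replicate 2, and the same animals low, corn oil replicate 3 and tricresyl phosphate replicate 1.

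Pparg, the fat cell receptor, was at −2.74, −2.27 and −2.69 with corn oil and −3.13, −2.66 and −2.64 with tricresyl phosphate. The ranges overlapped, and the difference was −0.24 ± 0.19 (SE). Its second probe, which targets another transcript of the gene and was above background in 5 animals, differed by 0.28. Ppard, a widely expressed receptor of fatty acid oxidation, differed by 0.030 ± 0.18 (SE), with its other 2 probes at −0.15 and 0.041.

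The REV-ERB receptors Nr1d1 and Nr1d2 bind haem and repress Bmal1, which gives the circadian clock one of its feedback loops. Nr1d1 varied more between animals than any other member. Its levels were −3.18, −3.69 and −1.30 with corn oil and −2.92, −1.82 and −0.40 with tricresyl phosphate, a range of 3.29. Only 0.898% of all genes tested had a wider range. The third replicate of each group was the highest of its group, and the groups overlapped widely. The difference of 1.01 ± 0.83 (SE) had a 95% interval from −1.02 to 3.04 and an adjusted limma p of 0.827. Leaving out corn oil replicate 2 or 3 turned it to 0.53 or 1.72, and leaving out tricresyl phosphate replicate 1 or 3 to 1.61 or 0.35. Nr1d2 was at −4.23, −3.87 and −3.45 with corn oil and at −4.21, −3.65 and −3.08 with tricresyl phosphate, a difference of 0.20 ± 0.33 (SE). Its highest value in each group was again in the third replicate.

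Bmal1 and Cry1, partners in the clock picked out after their values were seen, were each lowest in a group where Nr1d1 was highest. Bmal1, the activator that REV-ERB represses, was at 1.77, 1.65 and 1.56 with corn oil and 1.79, 1.68 and 1.55 with tricresyl phosphate. These are levels of the probe tested, and the second kept probe differed by 0.12 between the groups. At the probe tested the range of Bmal1 over all 6 animals was 0.24, and 85.1% of all genes had a wider one. The 2 animals with the lowest Bmal1 were those with the highest Nr1d1, corn oil replicate 3 and tricresyl phosphate replicate 3. Cry1, a repressor whose gene carries REV-ERB binding sites, was at 0.47, 0.43 and 0.02 with corn oil and at 0.71, −0.10 and −0.55 with tricresyl phosphate. Its lowest value in each group was likewise in the third replicate. Among the other clock partners tested only Per2 was also lowest there in each group, at −0.33 and −0.20. With corn oil Npas2 was lowest in replicate 2, at 0.37, and Nfil3 in replicate 1, at −0.69, while Clock was highest in replicate 3, at −1.43. What made these animals differ was not tested.

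Promoters were read for members whose groups did not overlap, here Esrra, and for Nr1d1 and Nr1d2 whatever their values. Each window is the 250 bases before a RefSeq start in GRCr8, read on the gene's strand. Both strands were searched for CACGTG, the E-box bound by Bmal1 with Clock, for AGGTCA, the core element of many nuclear receptors, and for GGAACA, that of steroid receptors. Matches are in capitals. Nr1d1 has 2 listed starts, at chr10:84231813-84232062 and chr10:84229455-84229704, both on the minus strand, and Nr1d2 has 1, at chr15:9954784-9955033 on the plus strand.
Nr1d1, first window: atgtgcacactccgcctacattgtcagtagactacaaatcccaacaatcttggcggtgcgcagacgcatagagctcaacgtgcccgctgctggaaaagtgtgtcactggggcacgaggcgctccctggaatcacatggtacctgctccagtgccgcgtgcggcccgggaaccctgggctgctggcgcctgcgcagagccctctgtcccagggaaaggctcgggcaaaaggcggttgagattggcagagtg
Nr1d1, second window: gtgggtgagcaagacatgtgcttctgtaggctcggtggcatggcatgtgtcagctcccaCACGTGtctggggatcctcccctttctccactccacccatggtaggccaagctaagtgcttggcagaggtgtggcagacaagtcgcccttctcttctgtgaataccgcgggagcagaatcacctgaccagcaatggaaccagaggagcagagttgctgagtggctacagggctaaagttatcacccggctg
Nr1d2: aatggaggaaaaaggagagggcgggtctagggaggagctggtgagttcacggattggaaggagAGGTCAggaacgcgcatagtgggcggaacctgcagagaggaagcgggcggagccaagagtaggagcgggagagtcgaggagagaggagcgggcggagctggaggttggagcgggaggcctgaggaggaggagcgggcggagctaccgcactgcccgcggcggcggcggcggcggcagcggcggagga
The second window of Nr1d1 holds a CACGTG and that of Nr1d2 an AGGTCA on the gene's strand. Over all 33469 windows of this length, CACGTG stood in 5.59%, AGGTCA in 14.1% and GGAACA in 14.3%. Of the 46 windows of 37 member genes, 4 held CACGTG, 5 AGGTCA and 4 GGAACA. The window of Esrra held no match. A match describes letters only, and no match says only that those letters are not in this window.

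**Figure D2:**
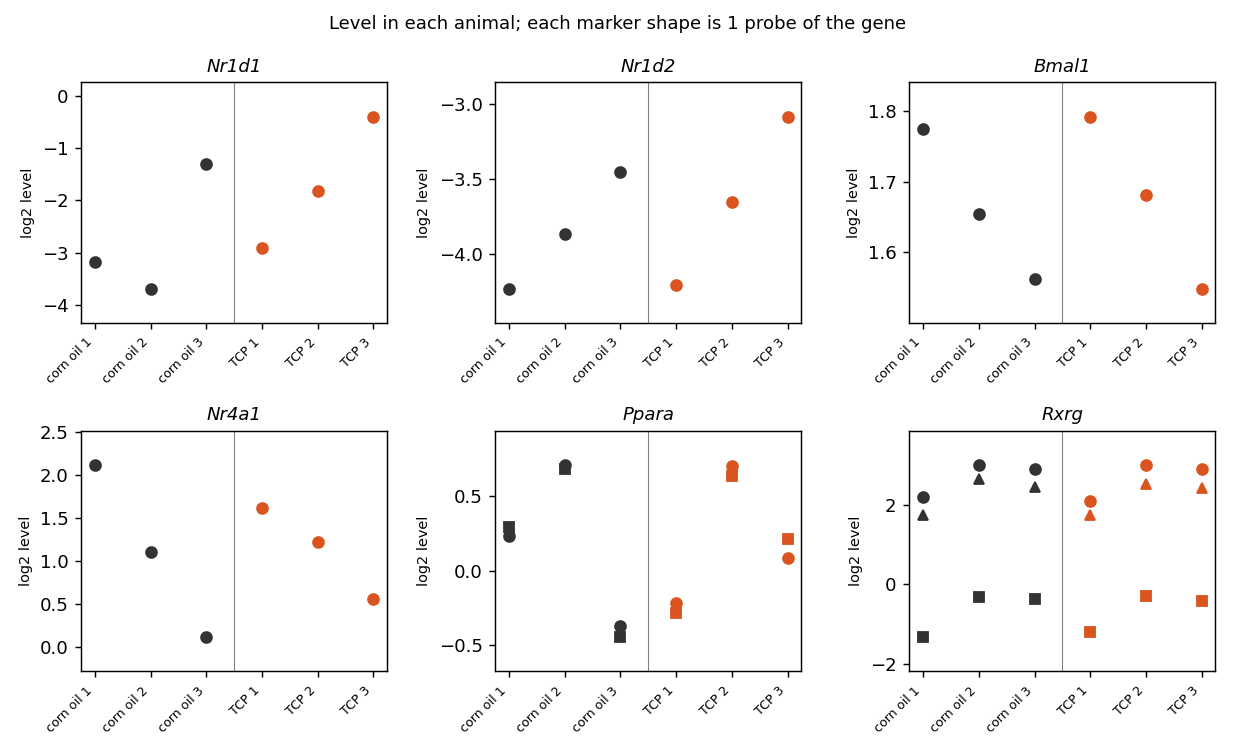
Each panel gives the log2 level of 1 gene in each of the 6 animals, corn oil in grey and tricresyl phosphate in orange, with a marker shape for each probe. For Bmal1 only the probe tested is shown, 1 of 2 kept. The third replicate of each group is the highest of its group for Nr1d1 and the lowest for Bmal1, and the 3 probes of Rxrg put the first replicate of each group low.

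Liver X receptors sense oxysterols, and the farnesoid X receptor senses bile acids. The groups overlapped for each of these genes. Nr1h3, liver X receptor alpha, was at 3.99, 4.02 and 4.03 with corn oil and 4.09, 3.92 and 3.90 with tricresyl phosphate. The difference was −0.041 ± 0.089 (SE), with a 95% interval from −0.26 to 0.18. Nr1h2, liver X receptor beta, differed by 0.079 ± 0.097 (SE). Nr1h4, the farnesoid X receptor, was at 5.27, 4.68 and 5.01 with corn oil and at 5.14, 5.03 and 4.85 with tricresyl phosphate. The tricresyl phosphate values all lay inside the corn oil range, and the difference was 0.019 ± 0.17 (SE). Its other 2 probes were at −0.095 and 0.14.

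Vdr, the vitamin D receptor, was at 0.55, 0.28 and 0.66 with corn oil and at 0.81, 0.79 and 0.33 with tricresyl phosphate. Tricresyl phosphate replicates 1 and 2 were the highest animals, but replicate 3 fell within the corn oil range. The difference was 0.14 ± 0.17 (SE), and the second probe was at 0.21.

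The receptors of foreign compounds, which turn on drug-metabolising genes, did not separate the groups. Nr1i2, the pregnane X receptor, differed by −0.13 ± 0.14 (SE), with a second probe at 0.044. Nr1i3 differed by −0.14 ± 0.15 (SE) at its detected probe. Hepatocyte markers were highest in corn oil replicate 2 and tricresyl phosphate replicate 3, and there Nr1i3 was at −4.34 and −4.46, its 2 lowest values.

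In the second subfamily, Hnf4a was at 4.16, 3.66 and 4.12 with corn oil and at 3.84, 4.14 and 3.86 with tricresyl phosphate. All tricresyl phosphate values lay inside the corn oil range. The difference was −0.030 ± 0.17 (SE), and the other 3 probes lay between −0.083 and −0.049.

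Retinoid X receptors are the shared partners of thyroid, retinoid, PPAR, LXR, FXR and vitamin D receptors. Rxra, the alpha form, was at −2.30, −2.30 and −2.16 with corn oil and at −2.29, −2.19 and −2.19 with tricresyl phosphate. Its range over all 6 animals was 0.13, narrower than in 98.0% of all genes, and the difference was 0.030 ± 0.087 (SE). Rxrb, the beta form, differed by 0.051 ± 0.093 (SE) at the probe tested. The second probe of Rxrb differed by 0.28 ± 0.11 (SE), with an unadjusted limma p of 0.044 and an adjusted limma p of 0.816 over all probes. Its groups met at corn oil replicate 3 and tricresyl phosphate replicate 3, both at −1.48.

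Rxrg, the gamma form, was picked out after its values were seen because 3 probes showed the same division of animals within both groups. The probe tested was at 2.22, 3.01 and 2.92 with corn oil and at 2.12, 3.02 and 2.91 with tricresyl phosphate. The first replicate of each group was below all other animals. The second probe was at 1.77, 2.67 and 2.45 with corn oil and 1.76, 2.54 and 2.44 with tricresyl phosphate. The third was at −1.33, −0.30 and −0.36 with corn oil and −1.19, −0.28 and −0.42 with tricresyl phosphate. Corn oil replicate 1 was the animal with its own slide and scan date, and tricresyl phosphate replicate 1 shared both with the 4 animals of higher Rxrg. The cause of the low values was not tested. The group difference was −0.033 ± 0.32 (SE), since each group held 1 low animal.

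The orphan receptors of the second subfamily overlapped between groups at the probes tested. Nr2f2, which controls vessel and stromal development, was at 2.66, 2.77 and 2.43 with corn oil and at 2.53, 2.44 and 2.23 with tricresyl phosphate. The groups differed by −0.22 ± 0.13 (SE), at an adjusted limma p of 0.811, and corn oil replicate 3 lay among the tricresyl phosphate values. Nr2f1, its close relative, differed by 0.12 ± 0.21 (SE). Nr2c2 was at −2.95, −2.74 and −2.95 with corn oil and at −2.75, −2.74 and −2.78 with tricresyl phosphate, a difference of 0.12 ± 0.093 (SE). The tricresyl phosphate animals were close together at the top of the corn oil range. Nr2c1 differed by −0.065 ± 0.11 (SE). Nr2f6 differed by −0.045 ± 0.10 (SE) at the probe tested and by 0.084 and 0.16 at its other 2 probes, whose groups did not overlap.

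Among the oestrogen and oestrogen-related receptors, Esrra was the member whose groups did not overlap. Esrra drives genes of mitochondrial energy metabolism. It was at 4.99, 4.83 and 4.83 with corn oil and at 4.81, 4.69 and 4.80 with tricresyl phosphate. The gap between the groups was small beside the distance of corn oil replicate 1 from its own group. That animal had a slide and scan date of its own. The groups differed by −0.12 ± 0.091 (SE), 0.92-fold, at an adjusted limma p of 0.820. The groups overlapped after median centring, quantile and cyclic loess normalization. Esrrg, another oestrogen-related receptor, differed by −0.051 ± 0.13 (SE). Esr1, oestrogen receptor alpha, was at −3.94, −4.16 and −4.74 with corn oil and at −4.34, −3.83 and −4.31 with tricresyl phosphate. These ranges overlapped widely, with a difference of 0.12 ± 0.25 (SE).

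The receptors of stress and salt-balance steroids overlapped between groups at their brighter probes. Nr3c1, the glucocorticoid receptor, was at 1.06, 0.95 and 0.66 with corn oil and at 0.91, 0.87 and 0.90 with tricresyl phosphate. The difference was 0.0036 ± 0.12 (SE), with a 95% interval from −0.29 to 0.30, and its other 2 probes were at −0.21 and −0.034. Nr3c2, the mineralocorticoid receptor, was at 0.53, 0.20 and 0.53 with corn oil and 0.55, −0.04 and 0.17 with tricresyl phosphate, a difference of −0.19 ± 0.18 (SE). Its 3 probes disagreed. The dimmest was at −5.69, −5.38 and −5.68 with corn oil and at −5.19, −4.77 and −4.74 with tricresyl phosphate. There the groups did not overlap, but it was above background only in corn oil replicate 2 and tricresyl phosphate replicates 2 and 3. It differed by 0.68 ± 0.16 (SE), at an unadjusted limma p of 0.00521 and an adjusted limma p of 0.816 over all probes. The remaining probe differed by 0.22.

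Counted by probe, 2 of the 64 kept member probes had an unadjusted limma p under 0.05, those of Rxrb and Nr3c2, where 5.42% of all 43099 kept probes were called. Groups did not overlap for 5 of 64 member probes, where 11.7% of all probes were so. Of 19 members with several kept probes, 10 had probes on both sides of 0, and over all such genes the share was 41.7%.

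The NR4A receptors are immediate early genes that respond to stimulation within minutes to hours. Nr4a1 was at 2.12, 1.11 and 0.11 with corn oil and at 1.61, 1.22 and 0.56 with tricresyl phosphate. The tricresyl phosphate values lay wholly inside the corn oil range of 2.00, and 3.22% of all genes had a wider range. The difference was 0.017 ± 0.53 (SE), with a 95% interval from −1.28 to 1.32. Nr4a2 was at −0.48, −0.90 and −0.61 with corn oil and at −0.76, −0.81 and −0.91 with tricresyl phosphate, a difference of −0.16 ± 0.13 (SE). Its other 2 probes were at −0.12 and 0.087.

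The atypical receptors Nr0b1 and Nr0b2 lack the usual DNA-binding domain and repress other nuclear receptors. Nr0b1 was at −5.26, −5.10 and −4.45 with corn oil and −4.61, −4.79 and −4.58 with tricresyl phosphate. Corn oil replicate 3 was the highest of all animals, so the groups overlapped, and the difference was 0.28 ± 0.22 (SE). Over the alternative fits the difference ran from 0.034 to 0.52, and without each animal in turn from 0.11 to 0.52. It was highest without corn oil replicate 3, with an unadjusted limma p of 0.00692 and an adjusted limma p of 0.693. Adjusted limma p-values over the alternatives ran from 0.693 to 0.961. The probe was dim, at −5.26 in corn oil replicate 1, where the lowest level well above background was −5.74. Nr0b2, the target through which the farnesoid X receptor lowers bile acid synthesis in liver, differed by 0.011 ± 0.14 (SE).

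**Figure D3:**
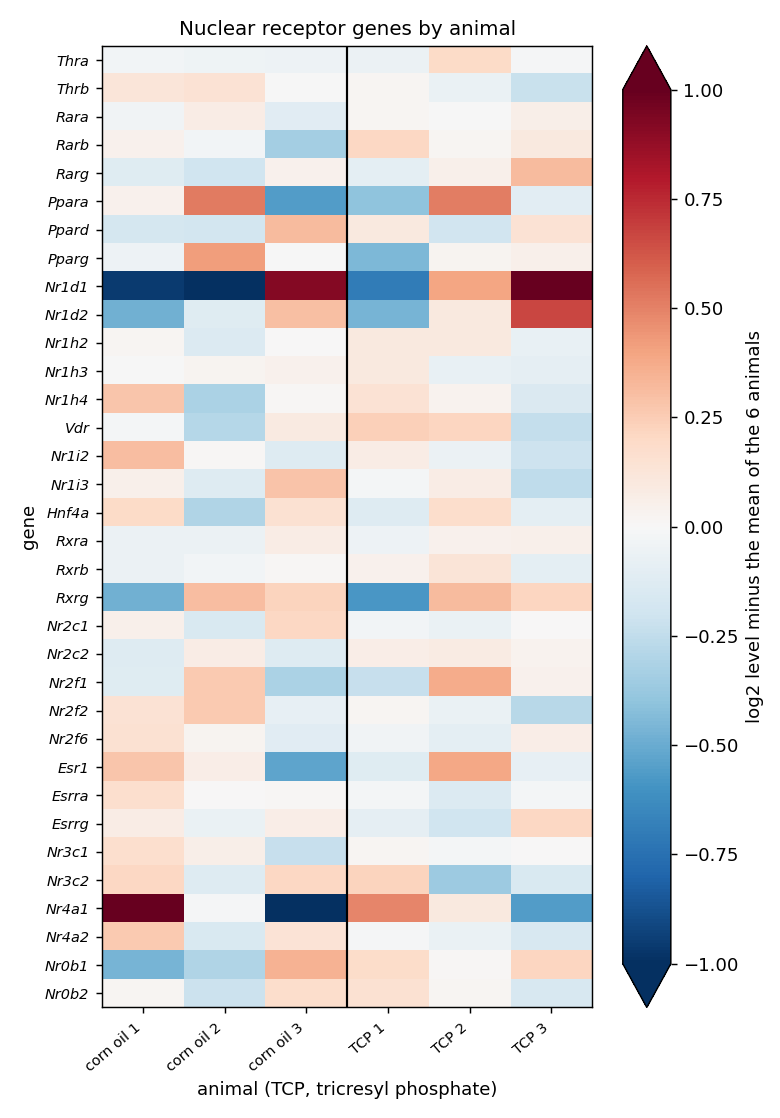
Each row is 1 of the 34 nuclear receptor genes and each column 1 animal. Colour gives the log2 level minus the gene's mean over the 6 animals, with colours saturating at −1 and 1, and the strongest colours lie in Nr1d1 and Nr4a1, where they differ within groups.

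The partners and targets of the receptors were described as 13 lists with 147 distinct genes, of which 123 were tested. None of the 123 had an adjusted limma p under 0.05. At an unadjusted limma p under 0.05 there were 3 above 0 and 4 below, where 1.63% of all genes were called above and 3.86% below. Groups did not overlap in 15 of the 123, where 11.8% of all genes did so. Ranges given in parentheses run over the 21 alternative fits. The median kept its sign in all of them for 3 lists, the corepressors, the thyroid and retinoid receptor targets and the PPAR targets, and took the other sign in at least 1 fit for the other 10.

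Coregulators lay on both sides of 0. Of 8 coactivators tested 4 lay above 0 and 4 below, with a median of −0.030 (−0.066 to 0.022). Prmt1, an arginine methyltransferase, differed by −0.17 ± 0.092 (SE, range −0.23 to −0.092), and Crebbp, a histone acetyltransferase, by −0.11 ± 0.090 (SE, range −0.17 to −0.070). Other Crebbp probes ranged from −0.42 to 0.30. Of 8 corepressor genes 5 lay above 0 and 3 below, with a median of 0.044 (0.015 to 0.099). The paralogues Tbl1xr1 and Tbl1x, which exchange corepressors for coactivators, had opposite signs at the probes tested. Tbl1xr1 was at −1.02, −1.09 and −0.89 with corn oil and at −0.83, −0.67 and −0.51 with tricresyl phosphate, a difference of 0.33 ± 0.12 (SE, range 0.18 to 0.41). Its other probes ranged from −0.0032 to 0.22. Tbl1x was at 1.88, 1.71 and 1.82 with corn oil and at 1.64, 1.65 and 1.51 with tricresyl phosphate, a difference of −0.20 ± 0.093 (SE, range −0.25 to −0.032). Other Tbl1x probes ranged from −0.083 to 0.087. Groups did not overlap at the probe tested for either gene, and the adjusted limma p was 0.811 for both.

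The chaperones that hold steroid receptors ready for hormone were below 0 in 8 of 9 tested genes, and in 4 to 8 under the other 5 scalings, with a median of −0.088 (−0.13 to 0.0049). Hspa8, the constitutive heat shock protein, differed by −0.19 ± 0.085 (SE, range −0.24 to −0.049), and Ppid, an immunophilin, by −0.17 ± 0.098 (SE, range −0.24 to −0.093). Other probes ranged from −0.17 to 0.14 for Hspa8 and from −0.15 to −0.037 for Ppid.

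Genes that supply or remove the ligands were balanced, with 11 of 21 above 0, 10 below and a median of 0.0058 (−0.061 to 0.10). Crym, which encodes a thyroid hormone-binding protein of the cytosol, was at 7.31, 7.32 and 7.16 with corn oil and at 6.96, 6.99 and 6.97 with tricresyl phosphate. The 3 tricresyl phosphate animals lay close together and below all controls. It differed by −0.29 ± 0.085 (SE), 0.82-fold, at an adjusted limma p of 0.811, and by −0.16 with quantile or cyclic loess normalization and −0.18 with normexp. Aldh1a2, an enzyme that makes retinoic acid, differed by −0.36 ± 0.14 (SE, range −0.47 to −0.23), and the groups overlapped.

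Target genes of thyroid and retinoid receptors lay above 0 in 10 of 12 cases, with a median of 0.13 (0.064 to 0.24) and no member at an unadjusted limma p under 0.05. Tgm2, a transglutaminase induced by retinoic acid, differed by 0.55 ± 0.23 (SE), and Cyp26a1, which breaks retinoic acid down, by 0.51 ± 0.24 (SE, range 0.33 to 0.77). The groups overlapped for both.

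Of 15 PPAR targets 12 lay above 0, and 11 to 13 under the other 5 scalings, with a median of 0.062 (0.025 to 0.26). Fabp4, a fatty acid-binding protein of fat cells, macrophages and capillary endothelium, was at −4.38, −4.34 and −5.46 with corn oil and at −3.43, −2.14 and −3.41 with tricresyl phosphate. The groups did not overlap, and the difference of 1.73 ± 0.46 (SE) corresponded to 3.32-fold. With normexp it was 0.93. The adjusted limma p was 0.811. The 2 tested adipocyte markers of 4 summed to 0.926 to 1.38 with corn oil and 1.04 to 1.25 with tricresyl phosphate, and Lep exceeded background in no animal. These 2 had opposite signs, Cidec at −0.51 and Adipoq at 0.20. Of 5 endothelial markers 2 lay above 0 and 3 below, with a median of −0.039. The 5 macrophage and lymphocyte markers summed to 34.2 to 36.2 with corn oil and 33.7 to 53.8 with tricresyl phosphate. Cd74, an MHC class II chaperone that makes up most of this sum, differed by 0.37, while Cd68 was at −0.16, Ptprc at −0.030, Csf1r at 0.12 and Cd3e at 0.10. The part of such cells in the Fabp4 difference was not tested.

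LXR and FXR targets lay below 0 in 5 of 7 cases, with a median of −0.033, which was −0.26 without tricresyl phosphate replicate 2 and 0.020 without replicate 3. Mylip, an ubiquitin ligase for the LDL receptor, differed by −0.17 ± 0.15 (SE, range −0.26 to −0.026), with its other probe at 0.024. Targets of the glucocorticoid and mineralocorticoid receptors lay above 0 in 6 of 10 cases, with a median of 0.12, which was −0.14 without tricresyl phosphate replicate 2. Tsc22d3, a classical glucocorticoid target, was at 2.97, 2.80 and 2.60 with corn oil and 2.11, 3.08 and 1.77 with tricresyl phosphate, so that tricresyl phosphate replicate 2 was the highest of all. Dusp1, a phosphatase, differed by −0.31 ± 0.27 (SE, range −0.54 to −0.16). Of 8 vitamin D receptor targets 7 lay above 0, with a median of 0.075 (−0.084 to 0.25), while S100g, a calcium-binding protein, differed by −0.47 ± 0.23 (SE, range −0.72 to −0.27) and the calcium channel gene Trpv5 by 0.34 ± 0.20 (SE, range 0.12 to 0.45).

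PXR and CAR targets lay below 0 in 5 of 8 tested cases, with a median of −0.15 (−0.29 to 0.066). Among the 8, Cyp2c6v1 counts as above 0, although its probe was well above background in only 1 corn oil animal. With only probes well above background on all 6 arrays, which leaves that probe out, the median was −0.29. Ugt1a1, which conjugates bilirubin, differed by −0.44 ± 0.18 (SE, range −0.56 to −0.29), and Abcc2, an efflux pump that also stands in the LXR and FXR list, by −0.39 ± 0.17 (SE, range −0.50 to −0.20). Cyp2b1 and Cyp3a9 exceeded background in no animal and Cyp3a23-3a1 in 1, so these went untested. Cyp2c6v1, a cytochrome P450 picked out after its values were seen, was at −7.33, −3.41 and −7.10 with corn oil and at −4.67, −4.45 and −2.68 with tricresyl phosphate. It was not well above background in corn oil replicates 1 and 3, so no difference is given, and its 2 highest values were in the animals with the highest hepatocyte markers. The part of such RNA in these levels was not tested.

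Among clock partners 7 of 12 lay above 0, with a median of 0.021 (−0.025 to 0.10). Clock, the partner of Bmal1, was at −1.44, −1.53 and −1.43 with corn oil and at −1.20, −1.37 and −1.21 with tricresyl phosphate. The groups did not overlap, and the difference was 0.21 ± 0.091 (SE). Dbp, a clock output gene, differed by 0.19 ± 0.10 (SE, range 0.13 to 0.25), and Bmal1 by 0.010 ± 0.11 (SE). Targets of the oestrogen-related receptors and Hnf4a lay below 0 in 10 of 14 cases, and in 5 to 10 under the other 5 scalings, with a median of −0.057 (−0.11 to 0.062). Apom, an apolipoprotein, differed by −0.31 ± 0.11 (SE, range −0.37 to −0.17), and Cycs, which encodes cytochrome c, by −0.26 ± 0.11 (SE, range −0.32 to −0.12). Ttr, a plasma carrier of thyroid hormone and a target of Hnf4a, was picked out after its values were seen, at −3.53, 1.88 and −2.52 with corn oil and −0.63, −0.62 and 1.51 with tricresyl phosphate. It too was highest in corn oil replicate 2 and tricresyl phosphate replicate 3, and its difference was 1.48 ± 1.46 (SE). Adrenal and steroidogenic genes, listed as markers, lay below 0 in 3 of 5 cases, with a median of −0.090, which was 0.073 without corn oil replicate 1.

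**Figure D4:**
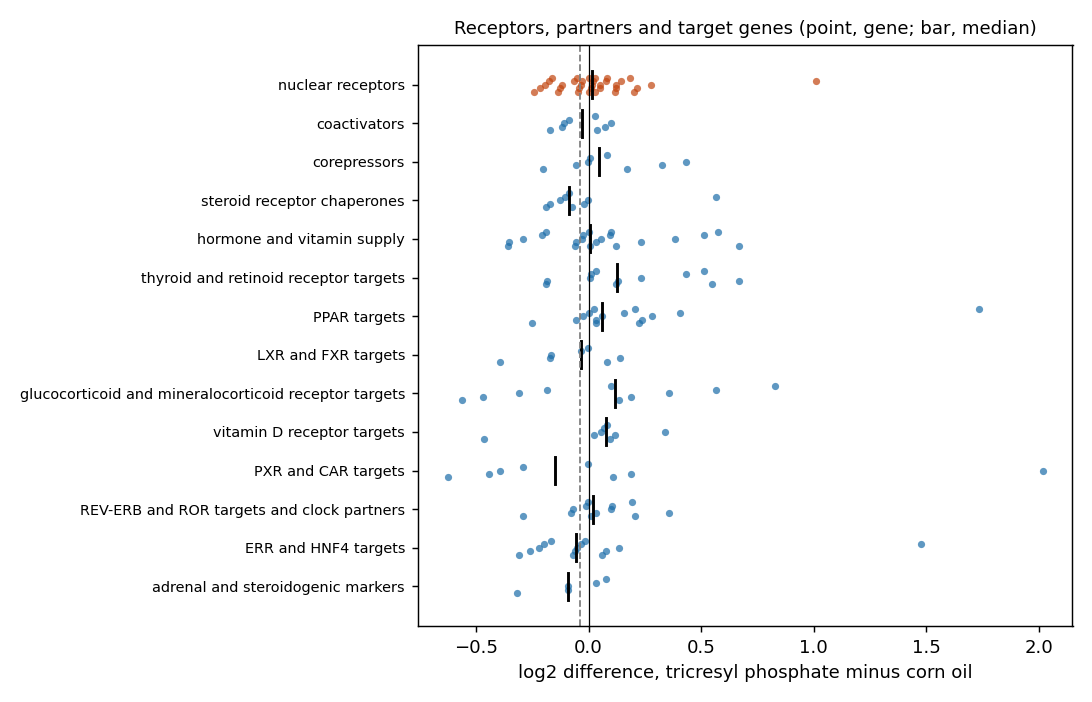
Each point is the log2 difference of 1 tested gene, tricresyl phosphate minus corn oil, for the 34 receptors and the 13 lists of partners, targets and markers, and each bar is a median. The dashed line is the median of all genes tested, −0.038, the Fabp4 point among the PPAR targets is at 1.73, and the rightmost PXR and CAR point is Cyp2c6v1, which was not well above background in 2 corn oil animals, so its place is not exact.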

How the data were processed

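RNA from the renal cortex of 6 rats, 3 a group, was labelled with Cy3 and hybridised to single-colour Agilent arrays, 1 array for each animal, per the labels' protocols. The deposited values are scanner intensities from Agilent Feature Extraction 10.7, per the submitters' processing notes, with version 10.7.1.1 and build rn4 given in the file headers. The processed intensity is already background-corrected, per the file headers. The array's accessions were named through RefSeq's GRCr8 table, which gave 28193 of 61537 non-control probes 1 symbol, 0 several and 33344 none. Coordinates and promoters are those of GRCr8.

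Here log2 processed signals minus each array's 75th percentile were fitted with limma 3.58.1 in R 4.3.3 over 31637 genes, with Benjamini-Hochberg adjustment. Probes were kept when well above background on at least 3 of 6 arrays, 77 outlier spots were set to missing (0 of them in members), and the probe with the highest mean level stood for its gene. Fits were tested on simulated data. The labels describe separate animals, and their number limits the precision. Replicate numbers were not treated as pairs in the main fit. Over all genes, same-numbered animals of the 2 groups correlated at 0.087, −0.051 and −0.044, and differently numbered ones at −0.078 to 0.12. Such a correlation does not show whether a few genes follow the numbers.

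The members and lists were chosen with earlier results of these data known. Values in all animals are given for members with groups that do not overlap, for the 8 with the smallest p, for those with a partly detected probe differing by more than 0.5, and for 18 receptors chosen whatever their values. Lists are given by counts, medians and up to 3 genes of smallest p. Alternatives covered scaling, background correction, filters, probe choice, outliers, variance model, slide, replicate block, threshold and each animal.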

Additional observations from a re-analysis of the deposited data

How the results depend on the processing

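Under all 21 alternative fits, and at an adjusted p under 0.1, the count of receptor genes past the threshold stayed at 0. The count at an unadjusted limma p under 0.05 was 2 with every kept probe tested, where 5.42% of all probes were called. It ran from 0 to 1 without each animal, where 4.46% to 6.87% of all genes were called. The replicate block, which treats animals of the same number as pairs, gave 1, Nr1d1, at an adjusted limma p of 0.753. That fit called 6.09% of all genes at an unadjusted limma p under 0.05. The count with groups that do not overlap was 2 with the 75th percentile over detected probes, 2 with normexp (on median spot signals, offset 50), 4 with every probe, 4 with the mean of probes, 0 with median centring, 0 with quantile and 0 with cyclic loess normalization. It ran from 2 to 8 without each animal. Over all genes the share not overlapping was 11.6% to 12.9% under these scalings and probe choices and 18.8% to 27.6% without an animal. All genes past the threshold numbered 2 with normexp, 2 with the trended robust variance model and 1 each without tricresyl phosphate replicates 2 and 3.

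Of 714 member values under alternatives 58 changed sign, in 20 members, and 14 members kept theirs. Median centring gave Bmal1 −0.010, Nr0b2 −0.0097, Nr1h4 −0.0020, Nr3c1 −0.017, Nr4a1 −0.0033 and Ppara −0.019. Quantile normalization gave Hnf4a 0.049, Nr1h3 0.040, Nr2f6 0.049 and Rxrg 0.0095. Cyclic loess gave Hnf4a 0.035, Nr1h3 0.026, Nr2f6 0.026 and Rxrg 0.0094. Normexp gave Esrrg 0.030, Hnf4a 0.050, Nr1h3 0.0062, Nr2f6 0.051 and Rxra −0.010. The mean of probes gave Nr2f6 0.065, Nr3c1 −0.079, Nr3c2 0.24, Ppard −0.028, Pparg 0.018 and Thrb 0.014. The slide block, which equals leaving out corn oil replicate 1, gave Hnf4a 0.058, Nr2f6 0.021 and Ppard −0.050.

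Without each animal in turn the differences ran from −0.048 to 0.073 for Bmal1, −0.11 to 0.29 for Esr1, −0.17 to 0.036 for Esrrg, −0.19 to 0.058 for Hnf4a, −0.095 to 0.10 for Nr0b2 and −0.082 to 0.48 for Nr1d2. They ran from −0.14 to 0.16 for Nr1h4, −0.16 to 0.020 for Nr2c1, −0.035 to 0.28 for Nr2f1, −0.11 to 0.021 for Nr2f6, −0.11 to 0.088 for Nr3c1 and −0.48 to 0.52 for Nr4a1. They ran from −0.28 to 0.26 for Ppara, −0.056 to 0.20 for Ppard, −0.00013 to 0.11 for Rxrb and −0.28 to 0.25 for Rxrg. Of 273 list medians 4 moved by more than the spread between animals: LXR and FXR targets to −0.26 without tricresyl phosphate replicate 2, adrenal and steroidogenic genes to 0.073 without corn oil replicate 1 and with the slide block, and hormone supply to 0.10 with quantile normalization. The causes were not tested. The median over all genes lay between −0.058 and −0.010 over these fits.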
